A study of Rattus norvegicus with 9 samples.

Results

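The locus described here is the stretch of rat chromosome 17 from 13350000 to 13550000 (genome build rn6) around *Gadd45g*. It was taken by position, as all accessible regions that lay wholly within these 200 kb, which gave 29 of the 186719 accessible regions measured. The locus was chosen by the normalized reads of CCI against naive rats, because a region that the study lists with *Gadd45g* as its nearest gene was more accessible after nerve injury. That region, here called the lead region, lies on chromosome 17 from 13448825 to 13449105. Since a difference between injured and naive rats chose the locus, its values for that comparison are given below as a description, without p-values.

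ATAC-seq, in which the Tn5 transposase cuts open chromatin, was used to measure accessibility in dorsal root ganglia (DRG), the structures that hold the cell bodies of primary sensory neurons. The ipsilateral L4-L6 DRG came from adult female Sprague-Dawley rats, with 1 rat per library. CCI rats (n = 2) had silk ligatures tied loosely around the sciatic nerve (chronic constriction injury) and were sampled 14 days later, and naive rats (n = 3) were the uninjured group. H3K4me1, a histone mark of enhancers and of the flanks of promoters, was mapped by ChIP-seq in duplicate for each condition, with 3 rats pooled per sample, and is known here only as a single merged list of region positions. DRG is a mixed tissue of neurons, glia and other cells, so in these bulk libraries a change in the number of cells of a type and a change per cell cannot be told apart. The defining markers of these cell types were not checked, since gene positions on rn6 were not used here.

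*Gadd45g* encodes a small stress-response protein of the GADD45 family, whose other members are *Gadd45a* and *Gadd45b*. These proteins have no known enzyme activity and act by binding partners. They activate the MAP kinase kinase kinase MAP3K4 (MTK1) upstream of p38 and JNK, bind the DNA clamp PCNA and the cyclin-dependent kinase CDK1, and have been linked to DNA repair and to active DNA demethylation. Their genes are transcribed rapidly after stress, growth arrest signals and neuronal activity. Genes of this kind are controlled from promoters next to the start of transcription and from distal enhancers, both of which can be seen as accessible chromatin.

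Values are given as normalized reads, in which each library's reads are divided by the authors' size factor. This divisor is 1 in naive rat 2, the library with the fewest reads in accessible regions. The divisor was highest in naive rat 1, at 3.06. Between 4633807 and 13248437 reads per library fell in accessible regions. The divisors did not follow these totals. CCI rat 1 had 7692994 such reads and naive rat 3 had 6382154, yet the divisor of CCI rat 1 was the lower. After division the total was highest in CCI rat 1. Every deposited value corresponded to a whole number of reads. No library holds a value below 1 read, and 1 read is held by 0.0321% to 5.81% of regions, so that 1 read may stand for none and fold changes that rest on it are uncertain. In naive rat 2 the median region of the locus held 20 reads. Intervals given below are exact 95% Poisson intervals and cover counting error only.

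The accessible regions of the locus were not spread evenly. A gap of 54.5 kb separated the lead region from a cluster of 5 accessible regions, and between that cluster and the H3K4me1 region of the lead lay 5 further accessible regions. The distance listed by the study, read on the side given by the minus strand of *Gadd45g* in RefSeq (GRCr8), places the start of the gene inside the accessible region from 13392962 to 13393509. This assumes that the chromosome runs the same way in both builds, and the listed regions nearest to *Tspan17*, *Sptlc1*, *Nfil3* and *Gadd45g* do follow the same order in both. In RefSeq the next protein-coding genes are *Diras2* on the 3′ side of *Gadd45g* and *Sema4d* on the 5′ side, the side on which the lead region lies. Whether any of the regions lie within *Sema4d* on rn6 was not determined, so "nearest gene" is used here only as the study's label.

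The promoter of *Gadd45g* is shown because 5 accessible regions cluster around its start. The 250 bases before the start of transcription, from RefSeq (GRCr8, minus strand, chr17:13530352-13530601), are printed with the motif matches in capitals. GRCr8 positions cannot be set beside the rn6 positions used for all other regions.
Gadd45g promoter: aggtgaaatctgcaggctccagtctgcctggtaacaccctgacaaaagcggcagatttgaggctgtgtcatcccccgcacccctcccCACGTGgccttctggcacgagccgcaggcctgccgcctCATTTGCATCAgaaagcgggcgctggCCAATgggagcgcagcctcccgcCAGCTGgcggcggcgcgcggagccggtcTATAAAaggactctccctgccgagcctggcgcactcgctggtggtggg

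Both strands were searched for 8 motifs, namely AP-1 (TGANTCA), CRE (TGACGTCA), C/EBP (TTGCNNAA), RUNX (TGTGGT), E-box (CANNTG), IRF, STAT (TTCNNNGAA) and CHOP-ATF4 (TGATGCAAT). E-box letters were found 3 times. The farthest match, CACGTG, begins 163 bases before the start of transcription. The middle match reads CATTTG and begins at 125 bases. The nearest one is CAGCTG at 76 bases. Of 33469 RefSeq promoters of the same length, 65.5% hold at least 1 E-box match. The letters of the other 7 motifs were not in this window. A further 3 were searched after the sequence had been seen. TATAAA, the core of the TATA box, begins 48 bases before the start (12.9% of promoters hold it), and CCAAT begins 99 bases before it (34.0% of promoters). TTGCATCA, letters that join parts of a C/EBP and an ATF site, begins 122 bases before the start. It overlaps the E-box match CATTTG and is held by 0.693% of promoters. On the other strand it reads TGATGCAA, which is the CHOP-ATF4 motif without its last letter. The absence of CHOP-ATF4 letters from this window thus rests on that last letter. The promoter is 66.0% G and C, against a median of 51.2% over all promoters. Motifs beyond those named were not searched, so other readings of the same letters are not covered. The matches are descriptions of letters and not measured binding sites.

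The same motifs were looked for in the promoters of the genes that GADD45 proteins act on or with, of which 15 of 16 were matched to a sequence by symbol (*Mapk9* was not). An E-box match was present in 11 of the 15, including *Gadd45g* and *Gadd45b* (65.5% of all promoters hold one). CRE letters were present in *Mapk10* and *Tdg* (1.59% of all promoters hold them), and C/EBP letters in *Map2k6* and *Pcna* (9.22% of all promoters). The letters of AP-1, RUNX, STAT and CHOP-ATF4 were in 0 of the 15, and those of IRF in *Mapk10*. Over all promoters 6.34%, 14.5%, 7.67% and 0.161% hold the first 4 of these, and 3.41% hold IRF letters. CCAAT was present in 11 of the 15, including all 3 *Gadd45* genes (34.0% of all promoters hold it). TATAAA was held by *Gadd45g* and *Tet1* (12.9% of all promoters), and TTGCATCA by *Gadd45g* alone (0.693% of all promoters). These 3 were picked after the *Gadd45g* sequence had been seen, so the matches in *Gadd45g* were fixed in advance. The accessibility of these other genes was not analysed here, since their positions on rn6 were not used.

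At the start of *Gadd45g*, the 5 accessible regions from 13390399 to 13394304 lay within a single H3K4me1 region of 4977 bp, the longest of the locus. The region that holds the inferred start had 103 and 82.0 normalized reads in CCI rats 1 and 2. In naive rats 1, 2 and 3 it had 67.0, 80 and 88.7. The groups overlapped, with CCI rat 1 the highest and naive rat 3 above CCI rat 2. The log2 fold change was 0.23 (standard error 0.266). In naive rats its mean was higher than that of 93.8% of all accessible regions, without correction for length. This region is 548 bp long, and the median over all regions was 366 bp with and 222 bp without H3K4me1.

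The other 4 regions of the cluster had naive means of 27.9 to 50.8 normalized reads. The region on the 5′ side of the start, from 13393717 to 13394304, was the only member of the cluster in which both CCI rats were above all naive rats. Its values were 84.8 and 60.4 in the CCI rats and 46.1, 55 and 51.3 in the naive rats. With a log2 fold change of 0.49 (standard error 0.277) it did not pass limma's unadjusted threshold of 0.01. The 3 regions on the 3′ side of the start had log2 fold changes of -0.012, 0.069 and -0.083. The nearest of them, from 13392459 to 13392764, had 34.0 and 26.6 normalized reads in the CCI rats and 27.5, 36 and 32.9 in the naive rats, so that the groups overlapped. Summed over the 5 regions, the cluster held 273 ± 47.3 normalized reads (SD, n = 2) in CCI rats and 239 ± 28.8 (SD, n = 3) in naive rats. It made up 28.6% ± 1.15 of the locus signal in CCI rats and 29.1% ± 4.93 in naive rats. The groups overlapped in both measures, and in the sum CCI rat 2 at 239 was below naive rats 2 and 3 at 245 and 265.

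**Figure D1:**
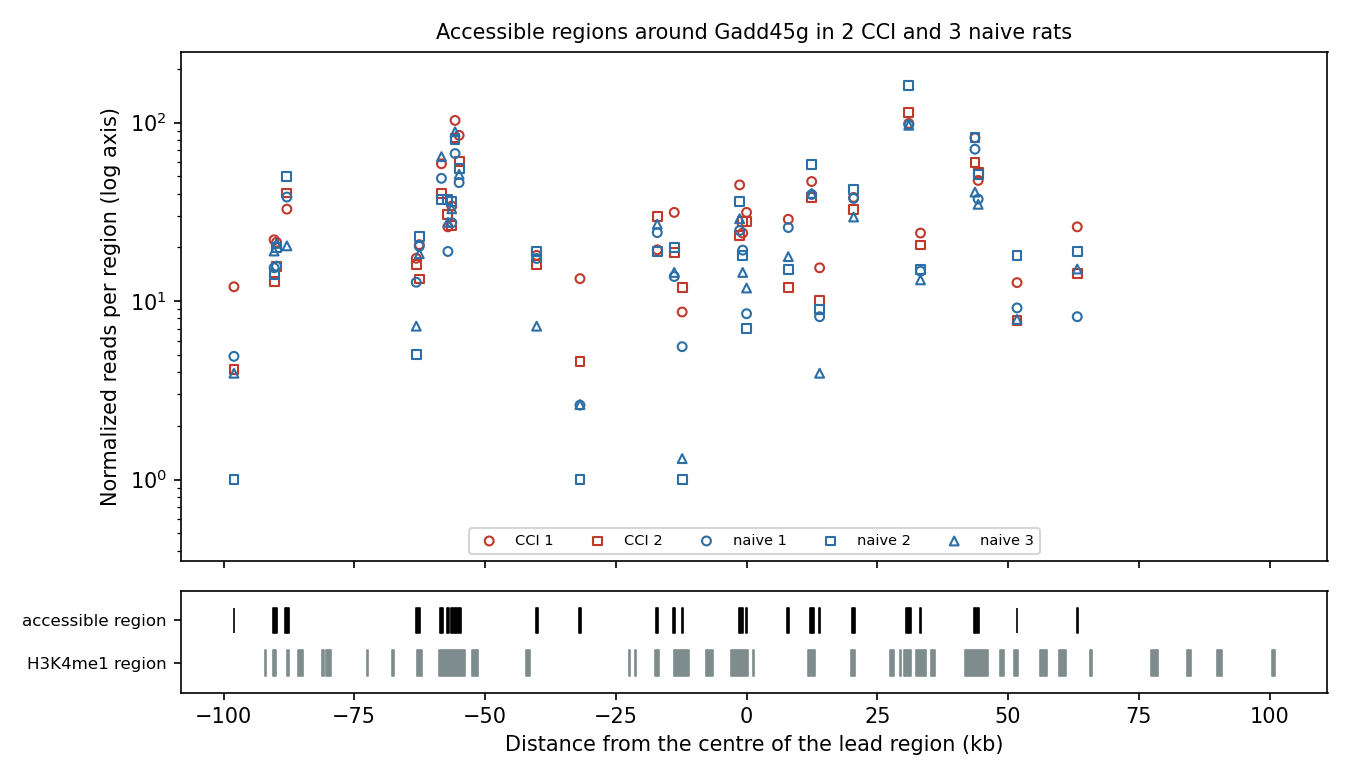
Normalized reads (log axis) of the 29 accessible regions in each rat (red, CCI, and blue, naive, with a symbol per rat) against distance from the centre of the lead region in kb, above the positions of accessible and H3K4me1 regions, drawn to scale with a thin outline. The 5 regions of the cluster at the *Gadd45g* start stand to the left of the lead region, and no accessible region lies in the last 37.7 kb on the right.

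The lead region, 281 bp long, had 31.4 and 27.9 normalized reads in CCI rats 1 and 2. The naive rats had 8.49, 7 and 11.8. Both CCI rats were above all 3 naive rats, and the gap between the lowest CCI and the highest naive value was wider than the range within either group. These values came from 47 and 61 reads in the CCI rats and from 26, 7 and 18 reads in the naive rats. Poisson intervals were 23.1 to 41.7 and 21.4 to 35.9 normalized reads in the CCI rats, and 5.55 to 12.4, 2.81 to 14.4 and 7.01 to 18.7 in the naive rats, so that no CCI interval met a naive interval. The log2 fold change was 1.63 (standard error 0.399) on the log2(normalized reads + 1) scale. This is the value by which the locus was chosen.

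In naive rats the lead region was near the middle of all accessible regions by normalized reads per region, and weak within its locus by normalized reads per kb. Its naive mean of 9.11 normalized reads was higher than that of 48.2% of all accessible regions. Per kb of length it had 30.2, 24.9 and 42.1 normalized reads in naive rats 1, 2 and 3, which placed it 28th, 26th and 21st from the highest among the 29 regions of the locus. In CCI rats 1 and 2 it had 112 and 99.4 normalized reads per kb, the 8th and the 9th from the highest. It made up 1.13% ± 0.409 (SD, n = 3) of the normalized reads of the locus in naive rats and 3.12% ± 0.162 (SD, n = 2) in CCI rats.

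The lead region shared its H3K4me1 region, 3199 bp long from 13445983 to 13449181, with 2 other accessible regions. It lay at the upper edge, with its end 76 bp from the end of the H3K4me1 region. The middle region, from 13448092 to 13448367 and 457 bp away from the lead, had 24.0 and 27.9 normalized reads in the CCI rats and 19.3, 18 and 14.5 in the naive rats. Both CCI rats were above the naive rats, by much less than in the lead region, and the Poisson intervals of the groups overlapped. Its log2 fold change was 0.57 (standard error 0.351).

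The lower region, from 13447444 to 13447839, had 44.7 and 23.4 normalized reads in the CCI rats and 24.8, 36 and 28.9 in the naive rats. Here CCI rat 1 was the highest and CCI rat 2 the lowest of all 5 rats, and the log2 fold change was 0.13 (standard error 0.312). Along the 3199 bp the log2 fold change thus stood at 0.13, 0.57 and 1.63 in order of position, and the standard errors of the lower and middle regions overlapped. The lead region held 31.3% and 35.3% of the normalized reads of the 3 regions in CCI rats 1 and 2. Its share was 16.1%, 11.5% and 21.4% in naive rats 1, 2 and 3.

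**Figure D2:**
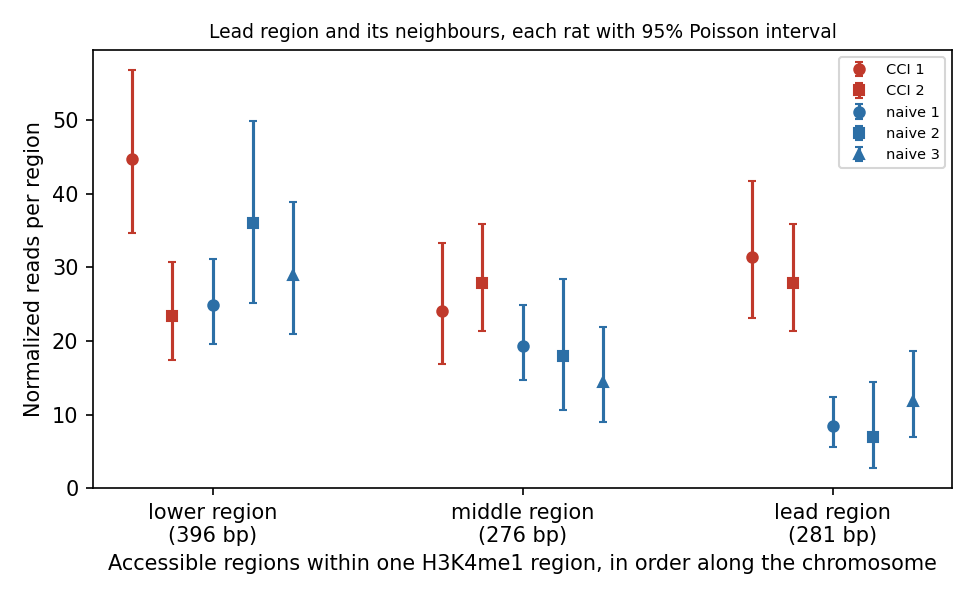
Normalized reads of the 3 accessible regions that share an H3K4me1 region, by rat (red, CCI, and blue, naive), with exact 95% Poisson intervals as bars. The CCI and naive rats are mixed in the lower region and stand apart in the lead region, where the CCI rats are at 31.4 and 27.9 and the naive rats at 7 to 11.8.

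Across the whole locus, 1 of the 29 regions, the lead region itself, was more accessible after CCI at limma's unadjusted threshold of 0.01, and 0 were less accessible. Among all regions that overlapped H3K4me1, 3.36% were called more accessible and 1.89% less accessible, and among regions that did not, 1.53% and 1.24% were. This balance turned with the scaling. Among the regions with H3K4me1, 1962 were called more and 1104 less accessible with the deposited scaling, against 1161 and 2030 after median-of-ratios rescaling and 1928 and 3869 with edgeR and TMM factors. Without CCI rat 1 they were 269 and 1740. The call of the lead region follows from the choice of the locus, and nothing is read from the count. At an unadjusted 0.05, limma called 3 regions more accessible and 0 less accessible. With edgeR and DESeq2 on whole reads, 1 was called more accessible and 0 less accessible at 0.01, and 2 and 3 more accessible and again 0 less accessible at 0.05. Over the 58445 regions with H3K4me1, edgeR called 2335 more and 1026 less accessible at 0.01, and DESeq2 912 and 660. Calls over all regions were not counted at 0.05, so nothing is read from the counts at that threshold.

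In 8 of the 29 regions both CCI rats were above all naive rats, and in 0 were both below them. The same was seen in 18.2% and 11% of all accessible regions. Besides the lead region, the middle region and the region beside the gene start, the 8 were 5 regions of 150 to 214 bp. The log2 fold change was above 0 in 20 of the 29 regions and ranged from -0.29 to 1.84, with a median of 0.17. In the flanking 1 Mb on each side it was above 0 in 93 of 142 regions. Its median over all accessible regions was 0.13.

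The highest log2 fold change of the locus, 1.84 (standard error 0.879), belonged to the region from 13436580 to 13436729, in an H3K4me1 region of 2878 bp. Its normalized reads were 8.68 and 11.9 in the CCI rats and 5.55, 1 and 1.31 in the naive rats, from 17, 1 and 2 reads in the naive rats. With so few reads in naive rats 2 and 3 the size of this difference is imprecise. The next region in the same H3K4me1 region, from 13434969 to 13435308, had a log2 fold change of 0.59 (standard error 0.360), with naive rat 2 at 20 normalized reads above CCI rat 2 at 18.8.

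Low reads also stood behind the region from 13417009 to 13417222, which did not overlap H3K4me1. Its log2 fold change was 1.59 (standard error 0.964), with 20 and 10 reads in the CCI rats and 8, 1 and 4 in the naive rats. The region from 13350882 to 13351031, also without H3K4me1, had 18 and 9 reads in the CCI rats and 15, 1 and 6 in the naive rats. Its groups overlapped, with a log2 fold change of 1.07 (standard error 0.862). These were the 3 regions of the locus in which at least 1 rat had 3 reads or fewer. In all 3 that rat was, or included, naive rat 2, the library with the fewest reads.

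**Figure D3:**
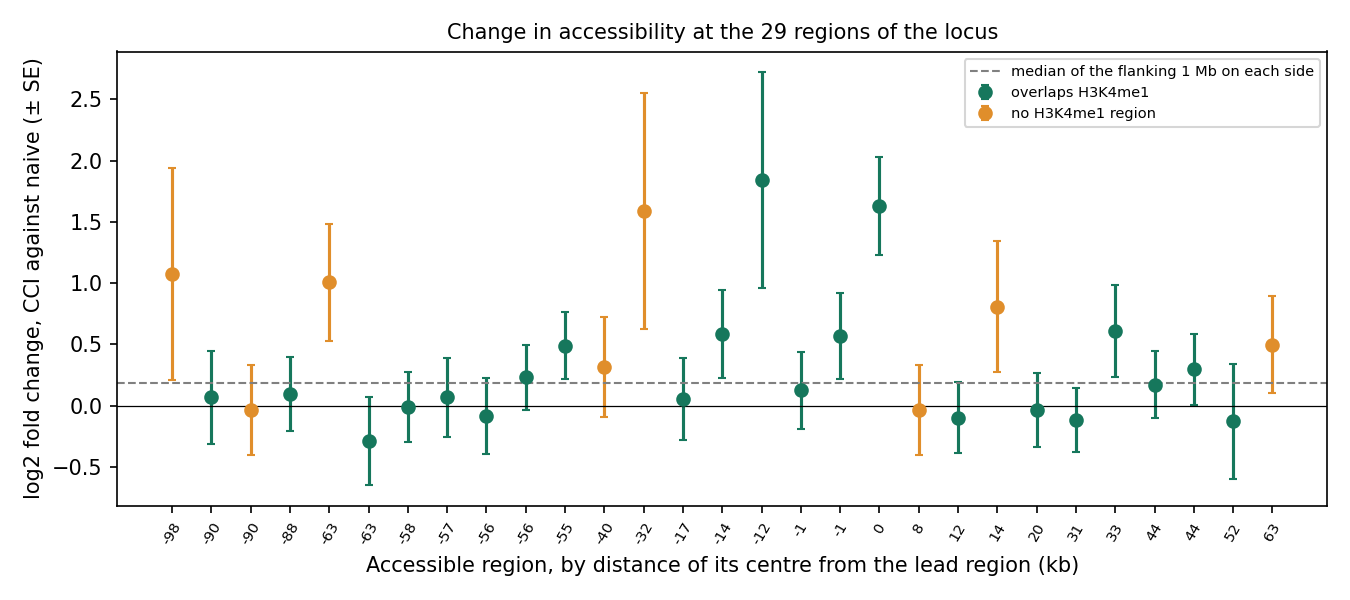
The log2 fold change (CCI against naive, ± standard error) of each of the 29 regions in order along the chromosome, labelled by distance from the lead region in kb, in green where it overlaps H3K4me1 and in orange where it does not. Most regions lie near the dashed flank median of 0.19, while the regions with a high log2 fold change other than the lead region have wide error bars.

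In the 3 regions with the strongest signal in naive rats the CCI and naive rats overlapped, with log2 fold changes of -0.11 to 0.23. The strongest and also the longest, 889 bp from 13479538 to 13480426, had 98.8 and 114 normalized reads in the CCI rats and 97.0, 162 and 96.6 in the naive rats. Naive rat 2 was the highest, both CCI rats were within the naive range, and the log2 fold change was -0.11 (standard error 0.260). The third strongest, after the region at the gene start, lay from 13492395 to 13492877, with 82.1 and 59.5 normalized reads in the CCI rats and 70.9, 82 and 40.7 in the naive rats. Its groups overlapped, with a log2 fold change of 0.17 (standard error 0.273). It and its neighbour, from 13493021 to 13493473, lay in an H3K4me1 region of 4335 bp, and the neighbour had a log2 fold change of 0.30 (standard error 0.290).

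The short region from 13482147 to 13482296 was among those in which both CCI rats were highest, at 24.0 and 20.6 normalized reads against 14.7, 15 and 13.1. Its log2 fold change was 0.61 (standard error 0.374) and it was not called. In the region from 13385726 to 13385903, without H3K4me1, the CCI rats had 17.4 and 16.0 normalized reads against 12.7, 5 and 7.23 in the naive rats. Its log2 fold change was 1.01 (standard error 0.477). It was also not called at 0.01.

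H3K4me1 was common at the locus. Overlap with an H3K4me1 region by at least 1 bp was found for 21 of the 29 accessible regions (72.4%), and 17 were covered by it over their whole length. In the flanking 1 Mb on each side 59 of 142 (41.5%) overlapped, and over all accessible regions 31.3% did. Counted from the other side, 37 H3K4me1 regions touched the locus and covered 19.8% of its bases, against 12.7% of the lower flank and 10.2% of the upper flank, and 13 of the 37 held an accessible region. Accessible regions were also denser, with 29 in the 200 kb of the locus against 13.8 and 14.6 per 200 kb in the lower and upper flank. The list of H3K4me1 regions has no values per sample, so the mark could not be compared between conditions, and these shares have no replicate error.

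The accessible regions with H3K4me1 were stronger and longer. In each rat, the median normalized reads of the 21 regions with H3K4me1 were divided by the median of the 8 regions without it. The ratio was 2.66 ± 0.764 (SD, n = 5) and was above 1 in every rat. This mean and SD pool both groups. The ratio was 1.85 and 2.28 in CCI rats 1 and 2, below the naive rats at 2.37, 3 and 3.82. Median lengths were 396 and 196 bp, and per base of length the ratio was 1.64 ± 0.342 (SD, n = 5), again above 1 in every rat. Per base the groups overlapped, at 1.37 and 1.71 in the CCI rats and 1.24, 1.82 and 2.09 in the naive rats. Before division by length, the ratio was 2.10 ± 0.446 (SD, n = 5) in the flank and 2.41 ± 0.302 (SD, n = 5) over all accessible regions. Per base it was 1.35 ± 0.212 and 1.60 ± 0.190 (SD, n = 5). Stronger regions with H3K4me1 were thus not particular to the locus. Ratios of single rats before division by length overlapped, at 1.85 to 3.82 in the locus and 1.71 to 2.625 in the flank, and in naive rat 1 the locus was lower. The median log2 fold change was 0.093 over the 21 regions with H3K4me1 and 0.65 over the 8 without it. The latter rested largely on CCI rat 1, since it was 0.32 without CCI rat 1 and 0.99 without CCI rat 2, and 0.54 to 0.71 with each naive rat left out. Over all accessible regions with and without H3K4me1 the medians were 0.15 and 0.12.

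Next, the locus was set against the flanking 1 Mb on each side, which held 69 accessible regions below and 73 above it. The median log2 fold change was 0.19 over the 142 flanking regions, 0.29 in the lower and 0.087 in the upper flank, and 0.12 over all 6284 accessible regions of chromosome 17. The median of the locus, 0.17, differed from that of the flank by -0.016. With each rat taken against the mean of the naive rats, the locus median stood above the flank median by 0.18 and 0.10 on the log2 scale in CCI rats 1 and 2. The corresponding differences were -0.011, 0.065 and 0.0059 in naive rats 1, 2 and 3. The sign of the difference between the medians changed with the processing, as the closing section gives.

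The lead region stood above the flank by 1.44 on the log2 scale. In the same per-rat terms it was above the flank median by 1.48 and 1.46 in CCI rats 1 and 2, and the naive rats were at -0.059, -0.41 and 0.47. The CCI rats did not overlap the naive rats. Of the 142 flanking regions, 1 had a higher log2 fold change than the lead region, at 1.74 (standard error 1.05). That region, from 13623281 to 13623430, had 1 and 0.66 normalized reads in naive rats 2 and 3, which is 1 read in each. The lead region was chosen by its difference between CCI and naive rats. The separation of the groups and its rank among the flanking regions therefore follow largely from that choice.

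Among the flanking regions 2 were called, and both were less accessible after CCI. The region from 13620969 to 13621559, which overlapped H3K4me1, had 13.4 and 8.70 normalized reads in the CCI rats and 19.9, 27.0 and 28.3 in the naive rats. Its log2 fold change was -1.13 (standard error 0.367). The region from 12409499 to 12409721, without H3K4me1, had 8.68 and 8.24 normalized reads in the CCI rats and 17.6, 27 and 20.4 in the naive rats. Its log2 fold change was -1.24 (standard error 0.405). Both CCI rats were above all naive rats in 27 of the 142 flanking regions (19.0%) and below them in 9. With 0 called more and 2 called less accessible, nothing is read from these counts beside the shares of all accessible regions given above.

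**Figure D4:**
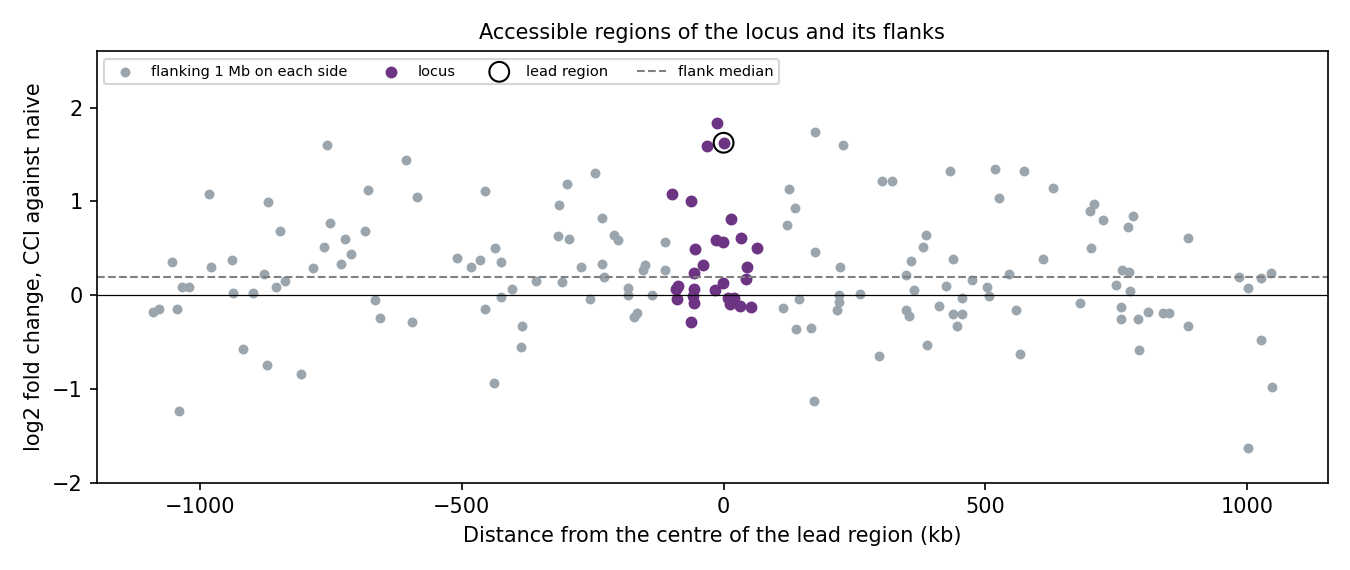
The log2 fold change (CCI against naive) of the accessible regions of the locus (purple) and of the flanking 1 Mb on each side (grey) against distance from the lead region in kb. The lead region, circled at 1.63, lies above the flank median of 0.19 (dashed), while most other regions of the locus fall among the grey points.

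The pattern of the lead region over the 5 rats was shared by many regions elsewhere. Of the 58444 other regions that overlapped H3K4me1, 794 (1.36%) had a Pearson r of at least 0.95 with it on the log2(normalized reads + 1) scale. The most alike, on chromosome 3 from 60944145 to 60944571, had 25.4 and 23.4 normalized reads in the CCI rats and 10.5, 9 and 13.1 in the naive rats. The next 4, on chromosomes 9, 16, 18 and 8, had r of 0.998 or higher. Within the locus the most alike were the regions beginning at 13417009 (r = 0.89), 13482147 (r = 0.88) and 13385726 (r = 0.80). These correlations rest on 5 rats, are shaped by the difference that chose the locus and by the depth of the shared libraries, and are a description.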

How the data were processed

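The deposited accessibility signal was made by the authors from paired ATAC-seq reads, which were trimmed, aligned to rn6 with Bowtie2, filtered for mapping quality and duplicates, shifted for the Tn5 footprint and counted over merged MACS2 regions with DiffBind. The authors then divided the reads by a size factor for each library, and whole reads recovered from the steps of the values fitted 100% of them within rounding. H3K4me1 regions were deposited by the authors as positions, called with MACS2 on CCI and naive duplicates against input and merged. Versions of these programs are not given in the sources used here.

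CCI and naive rats were compared with limma 3.58.1 (R 4.3.3) on log2(normalized reads + 1) with a mean-variance trend, without covariates, two-sided, at an unadjusted p below 0.01. Regions that overlapped H3K4me1 by at least 1 bp were fitted together (58445 regions), as in the study's methods, and the others in a fit of all 186719 regions. Rats were grouped by the sample labels (2 CCI, 3 naive), which match the paper's methods for differential accessibility. The paper's Results name 3 CCI and 2 naive replicates instead, and its library methods 3 of each. Nothing in the labels pairs the rats beyond a replicate number. Alternatives were edgeR 4.0.16, DESeq2 1.42.0, other scalings, pseudocounts, filters, flanks and overlaps, a replicate block and leaving out each rat. Leaving out rats for the regions without H3K4me1 was added after the values had been seen. Described with the value in every rat were the lead region, the called regions, those nearest to the gene start, the 3 strongest in naive rats and the longest, and as most alike the 5 regions with the highest correlation with the lead region and the 3 highest within the locus. Other regions named in the locus and its flank were chosen after their values were seen. The members and lists were chosen with earlier results of these data known. The motif search was planned for the accessible regions, whose rn6 sequence was not used here, and was made in the RefSeq promoters in its place. Figures were drawn with matplotlib 3.10.9 in Python 3.11.15.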

Additional observations from a re-analysis of the deposited data

How the results depend on the processing

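The lead region was called more accessible under each of its 18 alternatives, with log2 fold changes of 1.06 to 1.81 (1.47 to 1.81 with each rat left out in turn), and its excess over the flank of 1.44 ranged from 1.28 to 1.66 with each rat left out. Only a pseudocount of 10 moved that excess by more than the spread between rats, to 0.96. When a CCI rat was left out, the lone CCI rat was assumed to vary like the naive rats. All 18 alternatives reuse the libraries in which this difference chose the lead region. Its repeated calls were therefore largely fixed by that choice and are no independent check. Beside the lead region, limma without a trend called 1 more region (13436580 to 13436729), 2 in all, and a threshold of 0.05 gave 3. Without a trend, 1202 of the 58445 regions with H3K4me1 were called more and 561 less accessible. Nothing is read from these counts.

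The difference between the medians of locus and flank, -0.016, had no stable sign. It was 0.048 with a pseudocount of 10, 0.088 after quantile normalization, 0.075 with edgeR, 0.044 with edgeR and TMM factors, 0.065 with DESeq2, 0.041 with a 2 Mb flank, -0.12 and 0.086 with the lower or the upper flank only, 0.094 with flanking regions that overlapped H3K4me1, and -0.063 with the flank mean. With each rat left out it ranged from -0.042 to 0.18, with 0.18 both without CCI rat 2 and without naive rat 2, 0.10 without CCI rat 1 and 0.030 without naive rat 3. The median of the locus regions with H3K4me1, 0.093, ranged from 0.069 to 0.26 with each rat left out, reached 0.26 without CCI rat 2 and without naive rat 2, and was -0.026 with TMM factors. The cause of these moves was not tested. Median-of-ratios rescaling moved the median log2 fold change of all regions with H3K4me1 from 0.15 to 0.04.

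With the replicate block the lead region had a log2 fold change of 1.81, and the difference between locus and flank was 0.030. Deviations of rats with the same number had correlations of -0.0852 and -0.0749. The 2 CCI rats mirror each other around their mean, so these are not independent checks, and a shared batch was not tested. The block changed no call at 0.01 in the locus. Among all regions with H3K4me1 it gave 985 called more and 431 less accessible, against 1962 and 1104 without it. No CCI rat shares the number of naive rat 3, and leaving that rat out gave the same 1.81 and 0.030. H3K4me1 regions of at least 1 kb left 19.0% of flanking regions with overlap, against 41.5%, and 15 of the 29 in the locus. Counted per base, the ratio between regions with and without H3K4me1 moved from 2.66 to 1.64. The number of reads, 7 in naive rat 2 at the lead region, limits the precision of every single region here.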
